A study of Mus musculus with 21 samples.

Results

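The MHC class II presentation genes are the 10 genes H2-Aa, H2-Ab1, H2-Eb1, H2-DMa, H2-DMb1, H2-DMb2, H2-Oa, H2-Ob, Cd74 and Ciita, chosen by name from the 14493 genes of a single-cell count table of mouse lymph node B cells and plasma cells. All 10 were found there, and all 10 passed the filter on low counts in the comparisons of states, phases and days. The cells came from 6 mice given 100 µg of the protein antigen NP-KLH in an adjuvant under the skin, and draining lymph nodes were taken at day 10, day 16 or day 22, with 2 mice per day. Every mouse, whatever its day, also received 5 mg of tamoxifen at least 6 days after immunisation to switch on an eYFP label through Cre-ERT2. The promoter that drives this Cre, and the strain, sex and age of the mice, are not given in the sources used here. Live IgD-negative eYFP-positive cells were sorted into a plasma cell (PC) and a non-PC fraction, hashtagged by mouse, pooled and captured by the 5′ droplet method in separate wells. No unlabelled, unimmunised or genetically altered control enters any comparison.

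The authors named 6 cell states: DZ, LZtoDZ, preMem, prePC, PC and LZ. They hold 2382, 232, 522, 47, 242 and 3194 cells in that order, of 6619 in all, and LZ, the state labelled for the light zone, is the state the others are set against here. Each mouse gave its own sum of counts per state, so the mouse is the replicate. Only prePC lacked a mouse: day 16 mouse 1 had no prePC cell, and day 10 mouse 2 held 28 of the 47. The markers checked fit the names of preMem, PC, DZ and LZ, though light zone markers did not part preMem from LZ. They fit the names of prePC and LZtoDZ less well. Summed memory markers (Ccr6, Klf2, S1pr1) ran from 447 to 548 CPM (counts scaled to a total of 1000000) in preMem, against 9.82 to 45.3 in LZ. Summed plasma cell markers ran from 13578 to 21305 CPM in PC, against 1024 to 1142 in LZ. Summed dark zone markers (Cxcr4, Mki67, Foxo1) ran from 435 to 482 CPM in DZ, against 281 to 312 in LZ, but in LZtoDZ they ran from 179 to 376. Summed light zone markers (Cd83, Cd86, Cd40, Nfkbia) ran from 626 to 977 CPM in LZtoDZ and from 279.8 to 339 in DZ, against 920 to 1088 in LZ. In preMem they ran from 894 to 1227 CPM, across the LZ range. In prePC the memory markers reached 507 CPM, and the plasma cell markers ran from 1610 to 4222, below every PC value. In DZ the plasma cell markers ran from 1604 to 1866 CPM, which overlapped prePC. Counts of B cell genes were present in every state. The rule behind the states and the phase calls is not given in the sources used here; both may rest on the expression of these same cells, so the tests below describe the named states and are not independent of how they were named.

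MHC class II molecules show peptides from swallowed antigen to CD4 T cells. In the germinal centre, B cells that show more peptide from the antigen they captured get more T cell help in the light zone, and dividing cells move to the dark zone. H2-Aa and H2-Ab1 encode the α and β chains of I-A, and H2-Eb1 the β chain of I-E. Cd74 is the invariant chain, which fills the groove and guides the molecule to endosomes. H2-DM, with an α chain from H2-DMa and a β chain from H2-DMb1 or H2-DMb2, then removes the remnant of the invariant chain and edits the peptides. H2-O, made from H2-Oa and H2-Ob, inhibits H2-DM. Ciita is the coactivator without which the class II genes are barely transcribed, and the plasma cell factor Blimp-1, from Prdm1, is known to silence it.

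Of the 10 genes, 8 lie on chromosome 17, where the class II region spans chr17:34092340-34316674 on GRCm38 from H2-Oa to H2-Eb1 (GENCODE release M21). Cd74 and Ciita lie on other chromosomes, Ciita at chr16:10480059-10528418. All are protein-coding, and H2-Aa alone is on the minus strand. H2-DMb1 and H2-DMb2 are close copies: 18.1% of the 60-base words of the H2-DMb2 transcripts also occur in those of H2-DMb1. Reads from those stretches could be split or dropped between the pair, so their separate values are uncertain. H2-Oa, H2-DMa, H2-Eb1 and Ciita overlap genes on the opposite strand, and how the counting used strand is not given in the sources used here. H2-DMa and Cd74 also overlap a gene on their own strand (CR974462.3 and Mir5107), which strand cannot separate. The promoters of class II genes are known for an X box and a Y box, bound by the RFX, CREB and NF-Y factors to which Ciita attaches. The stretches are shown to let the boxes be read beside the genes' values. RefSeq promoter windows on GRCm38.p6 matched 7 of the 10 genes. Each line below gives the 150 bases before the start, with capitals marking TGATTGG (the Y box core) and an X box form (AAC, any 2 bases, then ATGATG), searched on both strands and chosen after the windows were read.
H2-Aa (chr17:34287824-34287973, minus strand): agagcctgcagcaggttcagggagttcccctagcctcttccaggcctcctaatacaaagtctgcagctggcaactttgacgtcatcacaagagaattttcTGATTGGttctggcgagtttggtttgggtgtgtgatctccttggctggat
H2-Eb1 (chr17:34305717-34305866, plus strand): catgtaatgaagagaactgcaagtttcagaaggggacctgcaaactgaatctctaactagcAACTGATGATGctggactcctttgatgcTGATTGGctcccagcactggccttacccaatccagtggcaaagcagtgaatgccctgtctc
H2-DMb1 (chr17:34153041-34153190, plus strand): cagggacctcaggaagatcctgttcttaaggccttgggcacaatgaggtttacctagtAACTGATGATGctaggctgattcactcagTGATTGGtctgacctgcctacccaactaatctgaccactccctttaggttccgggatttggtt
H2-DMb2 (chr17:34145099-34145248, plus strand): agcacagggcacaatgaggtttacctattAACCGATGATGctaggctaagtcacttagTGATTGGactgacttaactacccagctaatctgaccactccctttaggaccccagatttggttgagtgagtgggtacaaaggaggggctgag
H2-Oa (chr17:34092229-34092378, plus strand): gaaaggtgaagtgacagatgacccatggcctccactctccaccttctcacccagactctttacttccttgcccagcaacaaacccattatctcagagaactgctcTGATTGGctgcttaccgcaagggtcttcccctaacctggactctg
H2-Ob (chr17:34238755-34238904, plus strand): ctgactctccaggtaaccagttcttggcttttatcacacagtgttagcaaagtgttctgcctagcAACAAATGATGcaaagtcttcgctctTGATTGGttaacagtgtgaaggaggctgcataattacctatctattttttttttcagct

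TGATTGG occurs in all 6 of these stretches and in neither of the 2 windows of H2-DMa. Those 2 windows, not printed, end at chr17:34122831 and chr17:34125517, inside the annotated span of the gene (34119541 to 34139101). Whether either is the promoter used in these cells was not tested, so H2-DMa may have a Y box elsewhere. Of 32851 RefSeq windows of the same length, 5.71% hold it. The X form occurs in H2-Eb1, H2-DMb1, H2-DMb2 and H2-Ob, and in 0.0791% of all windows. The pair occurs together in 7 windows of 32851, which belong to these 4 genes, Nubp2 and Gm38969. The X form was chosen after the windows were read, so these counts are no test of it. In the 4 members 15 to 18 bases separate the X form from the Y core. H2-Oa and H2-Aa hold the Y core without that X form, and their values below run on both sides of those of the genes that hold both. Other X box forms were not searched, so a stretch without this form may still hold an X box. A match is only a match of letters, and the windows were not tied to any measurement of binding.

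Levels are a gene's unique molecule counts (UMIs) in a mouse and state scaled to a total of 1000000 UMIs (CPM). A UMI at the 5′ end stands for a molecule whatever its length, so no length correction was made. CPM measures a gene's share of the RNA counted, and the states differ in RNA per cell: the median was 9310 UMIs in DZ, 22505 in LZtoDZ, 5357 in preMem, 15290 in prePC, 18723 in PC and 7785 in LZ cells. UMIs per cell are therefore given beside CPM where the orders differ. The log2 differences, with their standard errors (SE), are from a quasi-likelihood F test in edgeR on the counts summed per mouse with the mouse as a block, p-values being Benjamini-Hochberg adjusted over all genes tested, with 0.05 as threshold. Its scale (TMM library sizes) is set between the sums, after the genes that differ most are trimmed, and assumes that most genes do not differ. Against LZ 60.3% of all genes passed in either direction in PC and 55.3% in LZtoDZ, where that assumption is least sure. In PC immunoglobulin genes took 22.1% of all UMIs, against 1.35% in LZ. A fitted difference need not match the ratio of CPM values, there or in other states. In preMem the ratio of mean CPM to that of LZ was 0.984 for H2-Ab1, with a fitted log2 difference of 0.12. The comparisons with LZ share the LZ sums, so they are not independent of each other.

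By mean CPM, LZtoDZ was next to last and PC last for all 10 genes, and preMem was first for all but H2-Ab1, where LZ was. Between them came LZ, then prePC and DZ, except that prePC stood above LZ for H2-DMb1. Cd74 had its highest values in preMem, from 29844 to 35390.2 CPM with a median of 31519, and its lowest in PC, from 4663 to 11394 with a median of 6172. In LZ it ran from 26036 to 27367 CPM. Neighbours in this order often overlapped between mice: prePC and DZ for all genes but H2-DMb1, where they were not neighbours; preMem and LZ for H2-Ab1, H2-DMa and Ciita; and LZtoDZ and PC for H2-Aa, H2-Ab1, H2-DMb1, H2-Ob and Cd74. Further overlaps were those of prePC and LZ for H2-DMb1 and H2-DMb2, of DZ and LZ for H2-DMb1 and H2-Ob, of preMem and prePC for H2-Ab1, of DZ and LZtoDZ for H2-DMb1, and of prePC and LZtoDZ for Ciita. The PC mice spread widely, with an SD of 702 around a mean of 1278 CPM for H2-Aa, against an SD of 127 around 5847 CPM in LZ (n = 6 each). In PC, day 16 mouse 1, with 12 PC, was highest for all 10 genes.

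**Figure D1:**
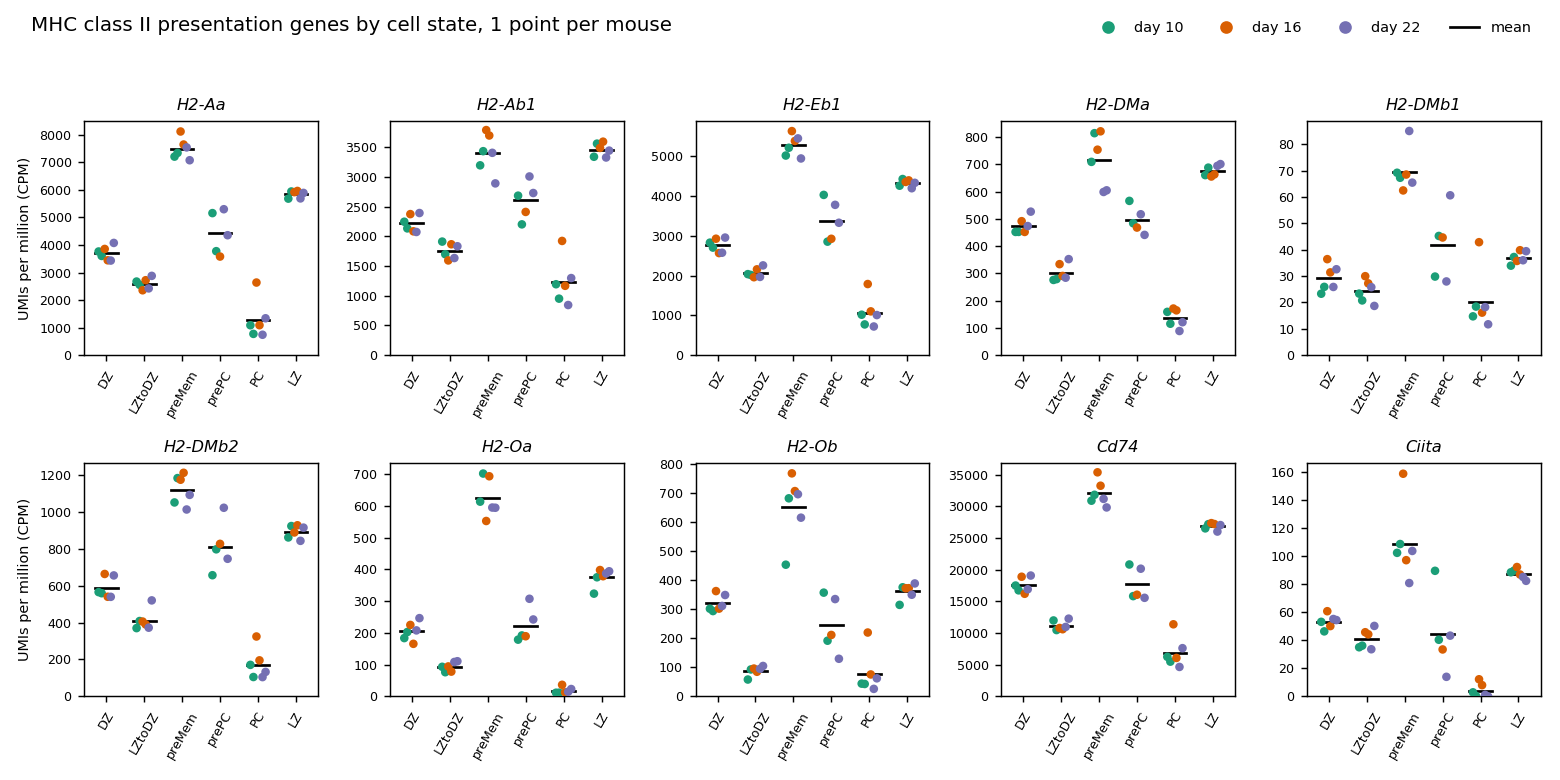
Each panel plots the CPM of a gene by cell state (vertical axis, starting at 0), a point being a mouse coloured by day and the bar the mean. The preMem mean is the highest in every panel but that of H2-Ab1, and the PC mean is the lowest in every panel. Points of different states overlap in many panels, and the day 16 mouse at 2637 CPM of H2-Aa is the high point in PC.

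In PC the class II genes were lower than in LZ, but by very different amounts. H2-Aa had 743 to 2637 CPM in PC with a median of 1088, against 5682 to 5961 with a median of 5904 in LZ, and the groups did not overlap. The log2 difference was -1.62 ± 0.16 (SE, edgeR adjusted p = 4.6e-10). H2-Eb1 differed by -1.41 ± 0.11 (edgeR adjusted p = 3.3e-12) and Cd74 by -1.34 ± 0.11 (edgeR adjusted p = 3.9e-12). H2-Ab1 fell least of the classical chains, to 844 to 1921 CPM in PC, against 3325 to 3591 in LZ. Its log2 difference was -0.87 ± 0.11 (edgeR adjusted p = 7.0e-08). The mean CPM of this β chain in PC was 0.356 of that in LZ, and that of its partner H2-Aa 0.219. The count of H2-Ab1 over that of H2-Aa was 1.10, 1.23, 0.729, 1.07, 1.14 and 0.968 in the PC of the 6 mice, against 0.584 to 0.602 in LZ. In all 6 mice the PC ratio was above every LZ value. This ratio was looked at after the values were seen and was not tested.

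Ciita was close to 0 in PC. Its counts in PC were 1, 1, 2, 5, 1 and 0 in the 6 mice, which is 0 to 12.2 CPM, against 82.3 to 92.1 CPM in LZ. The log2 difference was -4.63 ± 0.29 (SE, edgeR adjusted p = 6.0e-15), and leaving out single mice it ran from -5.40 to -3.77. With every cell thinned to 4727 UMIs, 4 of 240 PC held a Ciita UMI, or 1.67% (exact 95% interval 0.456 to 4.21%), against 974 of 2889 LZ cells, or 33.7% (32.0 to 35.5%). Before thinning the shares were 3.72% of PC and 49.0% of LZ cells, at median depths of 18723 and 7785 UMIs. No state lacks class II transcripts, so the share that free RNA alone would give was not measured. Beside Ciita, Prdm1 rose by 5.96 ± 0.33 log2 units and the B cell factor Pax5, which is known to sustain B cell genes, fell by 4.83 on the same scale (edgeR adjusted p = 1.3e-14 and 3.5e-14).

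The H2-O genes parted in PC. H2-Oa had 11.8 to 36.7 CPM in PC with a median of 13.9, against 324 to 398 with a median of 383 in LZ. Its log2 difference of -3.95 ± 0.17 (SE, edgeR adjusted p = 1.0e-18) was second only to that of Ciita among the 10 genes. H2-Ob had 26.2 to 220.3 CPM in PC, against 316 to 389 in LZ, a log2 difference of -1.84 ± 0.25 (edgeR adjusted p = 1.9e-07). The count of H2-Oa over H2-Ob was 0.167 to 0.565 in PC, against 0.998 to 1.10 in LZ, with no overlap; it was not tested. H2-DMa fell by 1.70 and H2-DMb2 by 1.81 on the log2 scale (edgeR adjusted p = 5.9e-14 and 3.6e-11). H2-DMb1 had 11.7 to 42.8 CPM in PC and 33.9 to 39.8 in LZ, and its difference of -0.33 ± 0.15 did not pass (edgeR adjusted p = 0.061); it passed without day 16 mouse 1 (-0.44), with the size factors of DESeq2 (-0.38) and without the replicate block (-0.35), with edgeR adjusted p of 0.020, 0.031 and 0.043. In all, 9 of the 10 genes were lower and none higher in PC, where 31.3% of all 7641 genes tested were lower and 60.3% passed in either direction; the median difference of the 10 was -1.66, against -0.07 over all genes.

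Per cell the PC values were also lower than those of LZ for 9 of the 10 genes in all 6 mice. A PC held 23.0 ± 8.04 UMIs of H2-Aa, against 51.7 ± 4.05 in an LZ cell (SD, n = 6 each). Of 242 PC, 234 came from the PC well, where 202 of the 436 cells belonged to other states. The 8 PC caught in the non-PC well had 2746 CPM of H2-Aa over all mice, and the 234 of the PC well 843. The H2-Ab1 to H2-Aa ratio of PC lies outside the range of all other states, which reaches 0.715. The part of free RNA in the remaining PC counts was not tested. Summed stromal and follicular dendritic markers, of which Cr2 and Fcer2a are also B cell genes and 1 of the 3 in the table was at 0 in PC, ran from 0 to 18.4 CPM in PC, against 204 to 387 in LZ, and their part was not tested.

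The other genes of the pathway did not all follow in PC. Of 11 tested genes of endosomal processing, which cut antigen and invariant chain, 6 were higher and 3 lower in PC, where 29.0% of all genes were higher. The cathepsins Ctsd, Ctsb and Ctsz were higher by 2.27 ± 0.15, 2.18 ± 0.10 and 1.14 ± 0.12 log2 units, and the lysosomal membrane protein Lamp1 was at -1.14 ± 0.13 (edgeR adjusted p between 4.4e-18 and 8.6e-09). Both tested genes of class II surface turnover were lower: Cd83, which protects surface class II from ubiquitination, at -5.43 ± 0.34 and March1, the ligase that ubiquitinates it, at -3.91 ± 0.29 (edgeR adjusted p = 5.4e-15 and 4.9e-13). Of the 7 genes of the class II transcription machinery 5 were lower, among them Rfx5 at -1.86 ± 0.33 (edgeR adjusted p = 1.7e-05), and none was higher. H2-Eb2, another class II β chain gene, was at -2.01 ± 0.11 (edgeR adjusted p = 2.6e-16). Of 8 upstream regulators 3 were higher and 5 lower; Irf4, which plasma cells need, was higher by 5.49 ± 0.17 (edgeR adjusted p = 6.0e-22) and Spi1, a myeloid and B cell factor, was at -2.22 ± 0.12 (edgeR adjusted p = 1.3e-16). The median difference was 0.51 over the processing genes, -4.67 over the turnover genes, -0.76 over the machinery and -1.36 over the regulators.

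**Figure D2:**
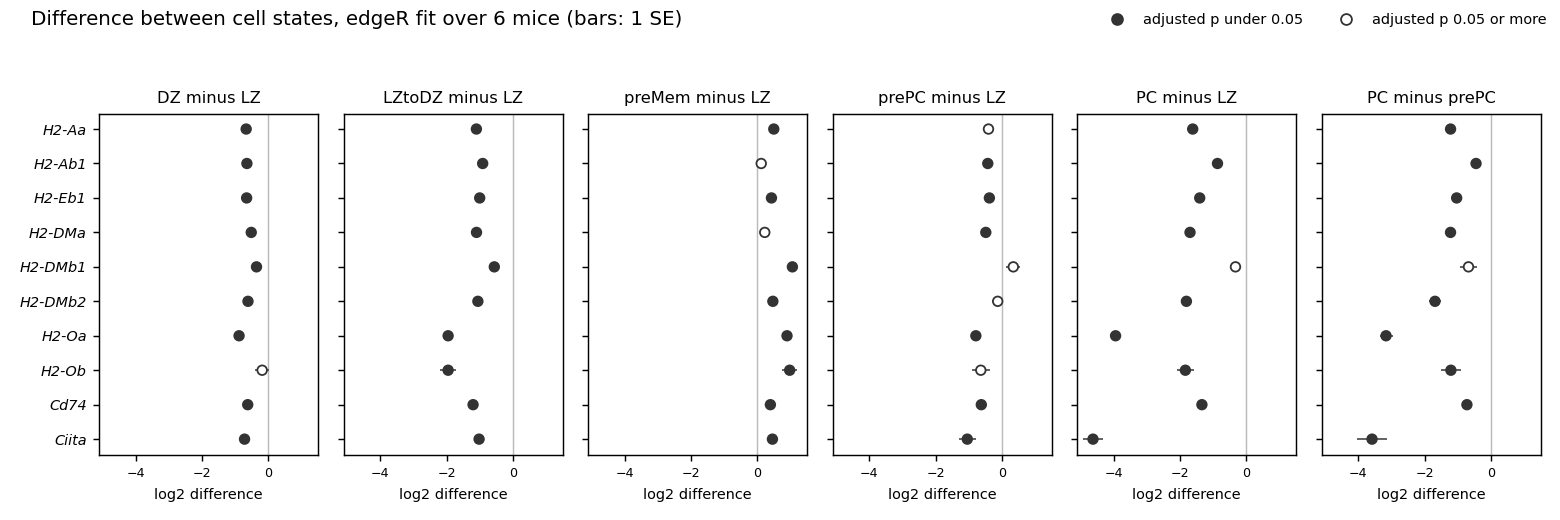
Each panel plots the log2 difference of the 10 genes between a pair of states (horizontal axis) with 1 SE, filled where the edgeR adjusted p was under 0.05. H2-Oa and Ciita lie farthest left in PC, H2-DMb1 is open in both PC panels, and preMem is the panel to the right of 0.

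In prePC, the state labelled for plasma cell precursors, fewer of the genes were lower than LZ, and by less. Ciita had 89.4, 40.4, 33.5, 13.98 and 43.3 CPM in the 5 mice with prePC cells, against 82.3 to 92.1 in LZ, and day 10 mouse 1, with 3 cells, lay inside the LZ range. The difference was -1.04 ± 0.25 (SE, edgeR adjusted p = 0.0033). H2-Oa was lower at -0.78 ± 0.16, Cd74 at -0.62 ± 0.11, H2-DMa at -0.48 ± 0.12, H2-Ab1 at -0.42 ± 0.12 and H2-Eb1 at -0.38 ± 0.12 (edgeR adjusted p between 1.9e-04 and 0.026). H2-Aa (-0.40 ± 0.17), H2-Ob (-0.64 ± 0.27), H2-DMb2 (-0.12 ± 0.17) and H2-DMb1 (0.35 ± 0.21) did not pass. So 6 of the 10 were lower, where 9.44% of all genes were and 17.1% passed in either direction. These calls depended on the fit. Without day 10 mouse 2, 3 of the 10 passed, in a fit where 543 genes did. Thinned, Ciita and Cd74 alone of the 10 passed, where 441 genes did. H2-Oa was then at -0.38 and H2-DMa at -0.22 (edgeR adjusted p = 0.47 and 0.52). H2-Ab1 and H2-Eb1 also lost their calls with DESeq2 (adjusted p = 0.097 and 0.17) and with its size factors. H2-Aa and H2-Ob passed without immunoglobulin genes (edgeR adjusted p = 0.022 and 0.0020), without the filter on low counts, and without day 16 mouse 1. In the PC well alone, where 7 prePC cells of 2 mice entered and 49 genes passed, none of the 10 did. There 7 of the 10 lay above 0 that had lain below it. Per cell, the mean of every gene but Ciita was higher in prePC than in LZ. Cd74 had 292 ± 41.8 UMIs per cell in prePC (n = 5), against 238 ± 19.0 in LZ (SD, n = 6), higher in 4 of 5 mice, and Ciita was higher in 3 of 5. Markers of other cell types spread widely between the prePC mice. The summed T cell markers ran from 0 to 266 CPM with a median of 9.69, against 1.03 to 4.43 with a median of 2.12 in LZ. None of these markers was at 0 over all prePC cells. Those of dendritic cells and macrophages ran from 44.6 to 298 CPM, against 43.2 to 162 in LZ, with 2 of the 8 at 0 in prePC. Their median was lower in prePC, at 60.6 against 95.6. The stromal and follicular dendritic markers ran from 43.3 to 119 CPM in prePC, against 204 to 387 in LZ. The part of these in the prePC values was not tested. Of the pathway, Ctsd and Ctsb were higher in prePC (1.60 ± 0.24 and 1.40 ± 0.15, edgeR adjusted p = 1.5e-05 and 1.9e-08) and Prdm1 was higher by 4.44 ± 0.63 (edgeR adjusted p = 1.1e-05). They were 2 of the 11 processing genes, where 7.63% of all genes were higher, with Ifi30 lower, and no machinery gene passed.

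PC was also set directly against prePC. Ciita differed by -3.58 ± 0.46 and H2-Oa by -3.16 ± 0.20 log2 units (SE, edgeR adjusted p = 2.5e-07 and 4.7e-14). H2-DMb2 differed by -1.68 ± 0.18 and H2-Ab1 by -0.45 ± 0.12 (edgeR adjusted p = 4.1e-09 and 0.0044). In all 9 of the 10 were lower, where 12.2% of all genes were and 29.7% passed in either direction. H2-DMb1, at 11.7 to 42.8 CPM in PC and 27.96 to 60.6 in prePC, missed at -0.67 ± 0.24 (edgeR adjusted p = 0.053), and was past the threshold when day 16 mouse 1 or day 22 mouse 1 was left out, with DESeq2 and with its size factors. The Ciita difference was -1.60 and no longer passed once cells were thinned (edgeR adjusted p = 0.34).

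In preMem, the state labelled for memory precursors, most class II genes took a larger share of the RNA than in LZ cells of all phases. Against LZ cells called G1, mean CPM in preMem was lower for Cd74 (32076 against 32720), H2-Ab1 (3399 against 3923) and H2-DMa (717 against 816). It was higher for the other members, from 108.4 against 107.3 for Ciita to 69.6 against 36.9 for H2-DMb1. The difference between preMem and G1 cells of LZ was not tested. H2-Aa had 7075 to 8119 CPM in preMem with a median of 7441, against 5682 to 5961 with a median of 5904 in LZ, with no overlap. Its difference was 0.50 ± 0.16 (SE, edgeR adjusted p = 0.014). H2-DMb1 and the H2-O genes had the largest differences of the 10. H2-DMb1 had 62.5 to 85.0 CPM, against 33.9 to 39.8 in LZ, a difference of 1.06 ± 0.12 (edgeR adjusted p = 5.4e-08). H2-Ob had 454 to 769 CPM, against 316 to 389, a difference of 0.98 ± 0.22 (edgeR adjusted p = 8.9e-04). H2-Oa had 552 to 702 CPM, against 324 to 398, a difference of 0.89 ± 0.13 (edgeR adjusted p = 1.9e-06). None of these 3 genes overlapped between the states, and the share of all genes without overlap is not given here. H2-Eb1 (0.43), H2-DMb2 (0.47), Ciita (0.46) and Cd74 (0.39) also passed, with edgeR adjusted p from 0.0031 to 0.017. H2-Ab1 (0.12 ± 0.11) and H2-DMa (0.22 ± 0.11) did not, though H2-DMa passed with DESeq2 (0.30, adjusted p = 0.0013) and in edgeR without immunoglobulin genes (0.26, adjusted p = 0.0052). So 8 of the 10 were higher, where 19.1% of all genes were and 36.3% passed in either direction.

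Several preMem calls depended on the fit. Without a filter on low counts 3 of the 10 passed, namely H2-DMb1, H2-Oa and H2-Ob, and H2-Ab1 turned to -0.06. In that fit H2-Aa was at 0.32 and Cd74 at 0.21. In the PC well alone, with 34 preMem cells of 4 mice, H2-Ob alone of the 10 passed, where 283 genes did. Ciita lost its call without day 16 mouse 1, whose 159 CPM was the highest of the preMem sums, or without day 22 mouse 2, and with thinned cells (0.43, edgeR adjusted p = 0.054). H2-DMb2 lost it without day 16 mouse 2 or day 22 mouse 2, and H2-Aa without day 10 mouse 1. Per cell the direction turned for most genes, and a preMem cell held fewer UMIs in all. An average preMem cell held 42.0 ± 4.36 UMIs of H2-Aa, against 51.7 ± 4.05 in LZ, lower in all 6 mice (SD, n = 6 each). H2-DMb1 alone was higher per cell in all 6 mice, at 0.390 ± 0.0569 UMIs against 0.327 ± 0.0267. H2-Oa was higher per cell in 3 mice and lower in 3, and H2-Ob was higher in 4.

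The α and β chains of I-A parted in preMem in the other sense to PC. The count of H2-Ab1 over H2-Aa was 0.408 to 0.483 in preMem, against 0.584 to 0.602 in LZ, with no overlap; it was not tested. Of the 11 processing genes 8 were higher in preMem and none lower, with Ctss, the protease that cleaves the invariant chain in B cells, at 1.00 ± 0.11 and Ifi30, the thiol reductase of endosomes, at 0.75 ± 0.13 (edgeR adjusted p = 2.9e-08 and 2.8e-05). Of the 8 regulators 2 were higher and 1 lower, where 19.1% of all genes were higher and 1320 of 7641 were lower. Irf1, an interferon factor known to induce Ciita in other cells, was higher by 1.47 ± 0.19 (edgeR adjusted p = 1.8e-07). March1 was higher by 0.81 ± 0.16 (edgeR adjusted p = 1.6e-04), Rfx5 by 0.58 ± 0.22 (edgeR adjusted p = 0.040), and Cd83, at 0.31 ± 0.23, did not pass. The medians were 0.56 for the processing genes and 0.22 for the regulators, against 0.03 over all genes. Summed stromal and follicular dendritic markers, with 1 of the 3 in the table at 0, ran from 369.6 to 514 CPM in preMem, against 204 to 387 in LZ; Cr2 and Fcer2a of that list are also B cell genes, and its part in the preMem values was not tested.

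**Figure D3:**
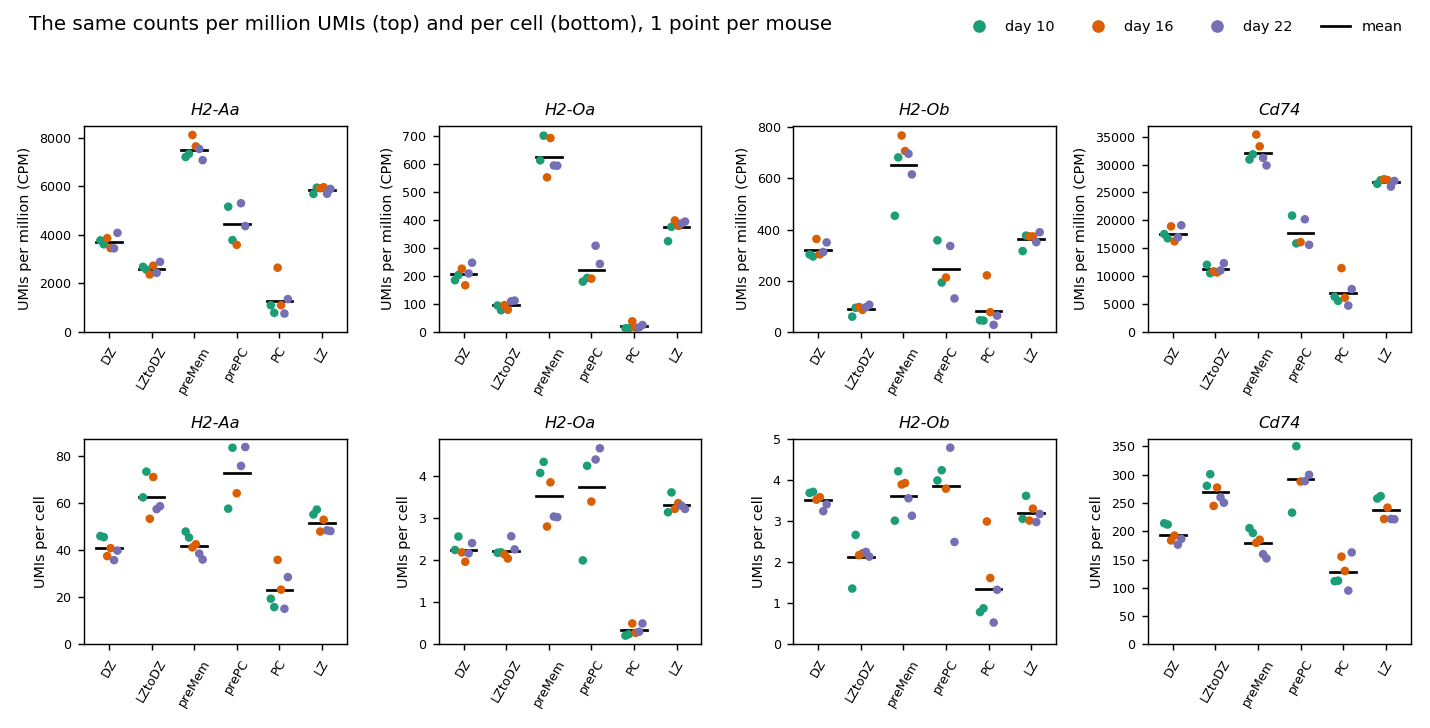
The same counts of 4 genes are plotted as CPM (top row) and per cell (bottom row) by state, a point being a mouse and the bar the mean. LZtoDZ is below LZ on the top row for all 4 genes and above it on the bottom row for H2-Aa and Cd74, while PC is low on both.

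In DZ most class II genes were lower than in LZ by a similar factor, with H2-Oa, H2-DMb1 and H2-Ob apart. H2-Aa had 3435 to 4075 CPM in DZ with a median of 3683, against 5682 to 5961 with a median of 5904 in LZ, and the groups did not overlap. Its difference was -0.67 ± 0.16 (SE, edgeR adjusted p = 0.0024). The differences of H2-Ab1, H2-Eb1, Cd74, H2-DMb2 and H2-DMa lay between -0.66 and -0.52, Ciita was at -0.72 and H2-DMb1 at -0.36, all past the threshold. H2-DMb1 lost its call with cells thinned (-0.36, edgeR adjusted p = 0.058). In the PC well alone, with 33 DZ cells of 4 mice, H2-Oa and Cd74 alone of the 10 passed, where 25 genes did. H2-Oa fell most, to 166 to 247 CPM in DZ, against 324 to 398 in LZ, a difference of -0.88 ± 0.13 (edgeR adjusted p = 4.3e-06). H2-Ob had 294 to 363 CPM in DZ and 316 to 389 in LZ. The groups overlapped, though DZ was the lower in all 6 mice, and the difference was -0.19 ± 0.22 (edgeR adjusted p = 0.64). A fit of DZ and LZ alone, added after the data were seen, gave the same size with a smaller error (-0.19 ± 0.04, edgeR adjusted p = 0.0019), in a fit where 16.5% of 9390 genes were lower. In all 9 of the 10 were lower, where 10.1% of all genes were and 18.5% passed in either direction; the median of the 10 was -0.64, against 0.00 over all genes. The stromal and follicular dendritic markers, with none of the 3 at 0, ran from 69.0 to 137 CPM in DZ, against 204 to 387 in LZ, and their part was not tested.

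The H2-Oa to H2-Ob ratio was 0.548 to 0.706 in DZ, against 0.998 to 1.10 in LZ, with no overlap; it was looked at after the values were seen and was not tested. Per cell, DZ was also lower for 8 of the genes in all 6 mice (40.9 ± 4.17 UMIs of H2-Aa, against 51.7 ± 4.05; SD, n = 6 each), but higher for H2-Ob in all 6 (3.54 ± 0.178, against 3.20 ± 0.241). DZ and LZ differ in cell cycle, so the fit was repeated with G1 cells alone: all 10 genes were lower in DZ, where 10.1% of 7411 genes were, with H2-Aa at -0.69, H2-Oa at -0.90 and H2-Ob at -0.16 (edgeR adjusted p = 0.016 for H2-Ob). Of the 11 processing genes 4 were lower in DZ and none higher, led by Ifi30 (-1.35 ± 0.13) and Ctsh (-0.50 ± 0.12). Cd83 was at -2.18 ± 0.23 (edgeR adjusted p = 2.6e-08), while March1 was at 0.34 ± 0.13 (edgeR adjusted p = 0.072). Among the regulators Irf4 was at -1.08 ± 0.25 and Irf1 at -0.64 ± 0.15, and Bach2 was higher by 0.40 ± 0.14, where 8.4% of all genes were higher (edgeR adjusted p = 0.0023, 0.0020 and 0.042).

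LZtoDZ, the state labelled for cells on the way between the zones, gave opposite answers on the 2 scales for most genes. H2-Aa had 2357 to 2879 CPM in LZtoDZ with a median of 2615, against 5682 to 5961 with a median of 5904 in LZ. The difference was -1.10 ± 0.16 (SE, edgeR adjusted p = 8.8e-07). The H2-O genes were lowest relative to LZ: H2-Oa had 76.4 to 111 CPM and H2-Ob 58.4 to 105 in LZtoDZ, against 324 to 398 and 316 to 389 in LZ. Both differed by -1.95 (SE 0.14 and 0.24, edgeR adjusted p = 9.6e-13 and 3.7e-08). H2-DMb1 was the least lower, at -0.56 ± 0.12 (edgeR adjusted p = 3.5e-04). All 10 were lower, where 27.6% of all genes were and 55.3% passed in either direction. None of the 10 overlapped between the states, and the share of all genes without overlap is not given here. The median of the 10 was -1.08, against -0.02 over all genes. The stromal and follicular dendritic markers, with 1 of the 3 at 0, ran from 88.3 to 206 CPM in LZtoDZ, against 204 to 387 in LZ, and their part was not tested.

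An LZtoDZ cell nevertheless held more UMIs of most class II genes than an LZ cell, and more UMIs in all. It held 62.7 ± 7.93 UMIs of H2-Aa and 269 ± 21.1 of Cd74, against 51.7 ± 4.05 and 238 ± 19.0 in LZ (SD, n = 6 each), each higher in all 6 mice. Per cell H2-Oa and H2-Ob were the exceptions, lower in all 6 mice, at 2.23 ± 0.182 and 2.14 ± 0.426 UMIs in LZtoDZ, against 3.31 ± 0.167 and 3.20 ± 0.241 in LZ. So the H2-O transcripts were lower in LZtoDZ on both scales, and the other 8 genes only as a share of RNA, with Ciita higher per cell in 5 of 6 mice. Of the processing genes 8 of 11 were lower and none higher, led by Cst3 (-1.24 ± 0.13) and Ctsh (-1.11 ± 0.13). Irf4 was higher by 1.47 ± 0.27 (edgeR adjusted p = 2.4e-05), where 27.7% of all genes were higher, Bach2 at -2.09 ± 0.21 (edgeR adjusted p = 1.2e-09) and March1 at -1.65 ± 0.17 (edgeR adjusted p = 3.3e-09). H2-Eb2 was at -1.41 ± 0.09 (edgeR adjusted p = 3.1e-13).

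The counts of the inhibitor H2-O were set against those of the editor H2-DM in each state. The summed count of H2-Oa and H2-Ob over that of H2-DMa, H2-DMb1 and H2-DMb2 was highest in preMem, from 0.584 to 0.762, against 0.411 to 0.488 in LZ. It was 0.227 to 0.299 in LZtoDZ and 0.162 to 0.477 in PC, where day 16 mouse 1 was the high value. Over the mice the log2 ratio differed by 0.55 ± 0.08 between preMem and LZ, by -0.90 ± 0.13 between LZtoDZ and LZ and by -0.86 ± 0.49 between PC and LZ (SD of the difference, n = 6). Each had the same direction in 6 of 6 mice, and each reached the smallest p that 6 mice allow in a 2-sided exact sign-change test, 0.031. Adjusted over the 14 ratio tests made, that p was 0.073, so none passed. In DZ the ratio was 0.458 to 0.500, higher than in LZ in 5 of 6 mice by 0.07 ± 0.07 (exact p = 0.063, adjusted 0.11). In prePC it was 0.429, 0.290, 0.300, 0.411 and 0.299, a difference of -0.41 ± 0.33 (n = 5, exact p = 0.13, adjusted 0.17; the smallest p for 5 mice is 0.063). H2-Oa set against H2-DMa alone gave the opposite direction in DZ, -0.37.

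**Figure D4:**
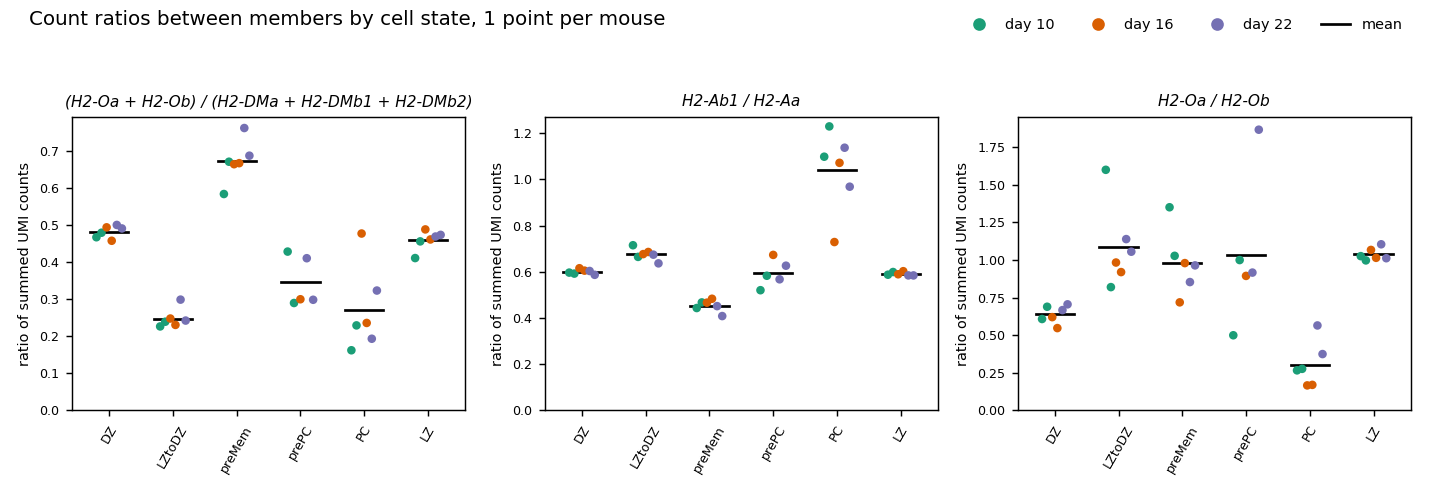
The panels plot ratios of summed UMI counts by state (vertical axes, starting at 0), a point being a mouse and the bar the mean: H2-O over H2-DM, H2-Ab1 over H2-Aa, and H2-Oa over H2-Ob. H2-O over H2-DM is highest in preMem, H2-Ab1 over H2-Aa is near 1 in PC and lowest in preMem, and H2-Oa over H2-Ob is low in DZ and PC.

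The classical genes set against Ciita had similar mean ratios in DZ, LZtoDZ, preMem and LZ. The summed count of H2-Aa, H2-Ab1 and H2-Eb1 over that of Ciita averaged 163 ± 13.4 in DZ, 160.3 ± 23.8 in LZtoDZ, 155 ± 30.9 in preMem and 156 ± 6.32 in LZ (SD, n = 6 each). On the log2 scale the differences from LZ were 0.06 ± 0.11, 0.03 ± 0.24 and -0.04 ± 0.28 (SD of the difference, exact p = 0.25, 0.84 and 0.75, adjusted 0.32, 0.84 and 0.81), with 5, 3 and 3 of 6 mice higher than in LZ. In PC the ratio was 1119, 6506, 518.5, 416 and 2026 in the 5 mice with a Ciita count, against 149 to 166 in LZ. That is a log2 difference of 3.03 ± 1.60, higher in 5 of 5 mice (exact p = 0.063, the smallest for 5 mice, adjusted 0.11). Day 22 mouse 2, with no Ciita count in PC, could not enter. The ratio in prePC was 133, 219, 266, 864 and 240.4, a difference of 0.81 ± 0.99 (n = 5, exact p = 0.13, adjusted 0.17). With 0 to 5 Ciita counts per mouse in PC, the size of its ratio is poorly fixed.

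Within LZ, single cells were also split by whether they held a Ciita UMI. At 4727 UMIs an LZ cell averaged 0.436 Ciita UMIs, so cells without one may still express it, and the split cannot bound the difference between cells that do and do not. The 974 cells with a Ciita UMI averaged 14844 ± 288 CPM of the classical genes, and the 1915 cells without averaged 14093 ± 461 (SD over 6 mice). The log2 difference was 0.08 ± 0.04, higher in 5 of 6 mice (2-sided exact sign-change test p = 0.063). Thinned to 8437 UMIs it was 0.06, higher in all 6 (exact p = 0.031).

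Along the cell cycle within LZ, the class II genes took their largest share of RNA in G1. Cd74 had 31482 to 33610 CPM in G1, 22158 to 23967 in S and 19194 to 24097 in G2M, and G1 did not overlap either. Its differences from G1 were -0.51 ± 0.03 in S and -0.58 ± 0.03 in G2M (SE, edgeR adjusted p = 2.3e-11 and 1.9e-12). H2-Aa had 6703 to 7164 CPM in G1, 4786 to 5182 in S and 4835 to 5952 in G2M. It differed by -0.46 ± 0.04 in S and -0.40 ± 0.04 in G2M (edgeR adjusted p = 1.2e-09 and 1.5e-08). H2-Oa was again the most lower, at -0.78 ± 0.06 in S and -0.75 ± 0.06 in G2M (edgeR adjusted p = 6.0e-10 and 1.8e-09). H2-Ob was at -0.67 ± 0.06 in S and -0.45 ± 0.06 in G2M, and Ciita at -0.49 ± 0.07 and -0.70 ± 0.08. H2-DMb1 differed in neither (-0.11 ± 0.12 and 0.15 ± 0.13, edgeR adjusted p = 0.52 and 0.37). So 9 of the 10 were lower in S, where 17.6% of all 7959 genes tested were and 38.6% passed in either direction. In G2M 9 were lower, where 18.9% were and 40.3% passed in either direction.

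Per cell most class II genes were higher in the later phases, whose cells also held more UMIs in all. How many of all genes were higher per cell is not given here. An LZ cell held 47.1 ± 1.91 UMIs of H2-Aa in G1, 52.6 ± 4.70 in S and 66.3 ± 6.90 in G2M (SD, n = 6 each). In G2M 9 of the 10 genes were higher per cell than in G1 in all 6 mice, and Ciita in 4. H2-Oa and H2-Ob were the exceptions in S, each lower per cell than in G1 in 5 of 6 mice. H2-Oa held 3.36 ± 0.183 UMIs per cell in G1 and 3.03 ± 0.272 in S. The H2-O to H2-DM ratio was 0.458 to 0.550 in G1, 0.371 to 0.423 in S and 0.392 to 0.477 in G2M. The log2 differences from G1 were -0.34 ± 0.04 and -0.20 ± 0.12, lower in 6 of 6 mice in both phases (SD, exact p = 0.031, adjusted 0.073). The classical to Ciita ratio was higher in G2M than in G1 by 0.34 ± 0.22 in 6 of 6 mice (exact p = 0.031, adjusted 0.073), and in S by 0.07 ± 0.18 in 5 of 6 (exact p = 0.44, adjusted 0.51). Of the pathway, 7 of 11 processing genes were lower in S and 7 in G2M with none higher, Ctss leading at -0.55 ± 0.06 and -0.76 ± 0.07. The machinery went the other way in G2M, with 4 of 7 genes higher, where 21.4% of all genes were, among them Nfya (1.08 ± 0.20) and Nfyb (0.95 ± 0.09; edgeR adjusted p = 2.1e-04 and 2.5e-08).

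**Figure D5:**
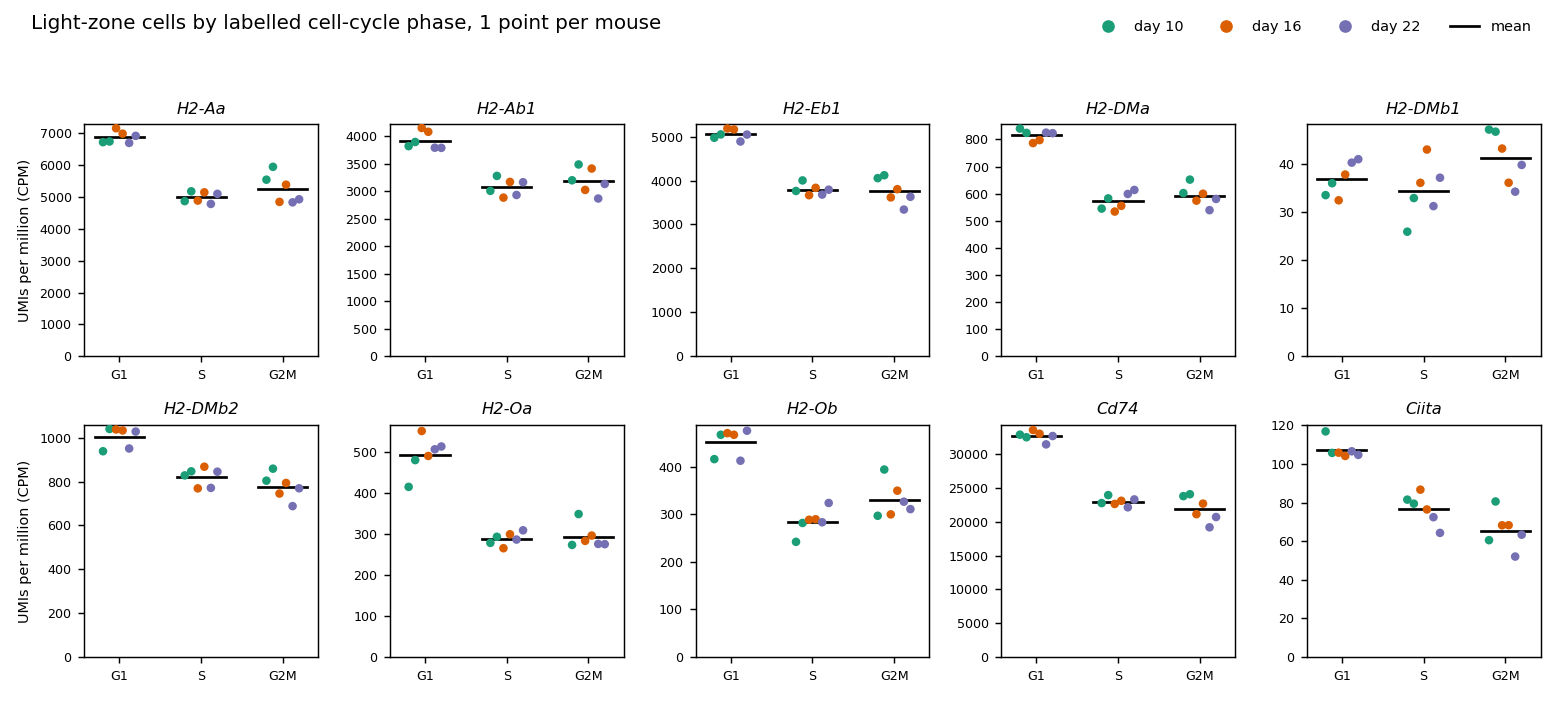
Each panel plots the CPM of a gene in LZ cells called G1, S and G2M (vertical axis starting at 0), a point being a mouse coloured by day and the bar the mean. G1 lies above S and G2M in every panel but that of H2-DMb1.

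No difference between DZ and LZ in the G1 to S step was detected. The S minus G1 difference in DZ minus that in LZ lay between -0.12 and 0.25 log2 units over the 10 genes, 0.08 ± 0.08 for H2-Aa and -0.12 ± 0.10 for H2-Ob. None passed (lowest edgeR adjusted p = 0.90), where 0.892% of 8072 genes did. None of the 10 had an unadjusted p under 0.05, where 621 of 8072 genes did. The intervals do not show that the steps are equal.

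No change of the class II genes between the days passed the test. H2-Aa in LZ had 5682 and 5942 CPM at day 10, then 5917 and 5961 at day 16, and 5690.5 and 5890.0 at day 22. Ciita in LZ had 88.4 and 89.5 CPM at day 10, 92.1 and 86.8 at day 16 and 85.1 and 82.3 at day 22. Over the 10 genes the day 22 minus day 10 differences lay between -0.14 and 0.10 in LZ and between -0.04 and 0.19 in DZ. None of the 10 passed in LZ (lowest edgeR adjusted p = 0.16), where 1.52% of 9753 genes did, and 2 had an unadjusted p under 0.05, where 14.8% of all genes did. None passed in DZ (lowest edgeR adjusted p = 0.69), where 0.533% of 9572 genes did. None had an unadjusted p under 0.05 there, where 1044 of 9572 genes did. Tested over all 3 days at once, none passed in LZ or DZ either, where 1.07% and 0.334% of all genes did. In LZ 1 of the 10 had an unadjusted p under 0.05, where 11.4% of all genes did. In DZ none had, where 799 of 9572 genes did. The day effect in DZ minus that in LZ lay between 0.03 and 0.25, and none passed, where 0.12% of 9968 genes did. The SE of the day 22 minus day 10 difference was 0.02 to 0.12 in LZ. Of the other lists, 1 gene passed in LZ, Ifi30 at -0.45, and none in DZ.

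The genes whose levels most resembled the classical chains were Hvcn1, Ptprc, Cd37, Sh3kbp1 and Mef2c, with Pearson r of 0.972, 0.963, 0.942, 0.936 and 0.936 against the mean log2(CPM + 1) of H2-Aa, H2-Ab1 and H2-Eb1. This was over 35 sums of mouse and state and among 4530 genes, and the sums share mice, states and depth, so r is a description. Hvcn1, a proton channel of B cells, had 524 ± 62.0 CPM in preMem and 34.1 ± 19.0 in PC, against 349 ± 28.3 in LZ (SD, n = 6 each). For Ciita they were Ptpn6, Rps20, Rps16, Limd2 and Sh3bp5, with r of 0.959, 0.945, 0.943, 0.942 and 0.941. Ptpn6, the phosphatase SHP-1, had 33.3 ± 14.4 CPM in PC, against 565 ± 43.7 in LZ (SD, n = 6 each). The classical mean itself had r of 0.886 with Ciita, 0.988 with Cd74 and 0.810 with H2-DMb1, the lowest of the members.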

How the data were processed

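The report rests on the deposited table of 6619 cells and 14493 genes, made by the authors with Cell Ranger and Seurat on mm10/GRCm38, per the submitters' processing notes, which give no versions. The deposited values are raw UMI counts, and the deposited cell table gives module scores (unit: score, not used), state, phase, day and mouse per cell. Doublet treatment is not given in the sources used here; 6 barcodes occur in both wells. The 21 libraries (8 gene expression libraries per fraction, 3 receptor, 2 hashtag) are pools, so mice were taken from the cell table; the wells held 436 and 6183 cells, and mice 343838 to 2985833 UMIs in the PC well and 5917047 to 15613386 in the other. Receptor sequences were not used here.

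Counts were summed per mouse and population (at least 10 cells, 3 for prePC) and tested with edgeR 4.0.16 in R 4.3.3 (TMM, filterByExpr, mouse block for states and phases), after a check on simulated data. Populations of a mouse share the mouse, so the block is by animal. Ratios used 2-sided exact sign-change tests. Thinning drew 4727 UMIs per cell (10th percentile, 5957 cells kept, 662 shallower ones left out) or 8437 (3310 kept). Shares have exact (Clopper-Pearson) 95% intervals, which cover counting error only. Members, lists and tests were chosen with earlier results of these data known. Some genes of the marker and regulator lists are not reported here, and the counts, medians and sums of those lists leave them out. All 10 members are named, with up to 4 genes of lowest p per other list and the 5 most alike genes (mean CPM of at least 20). Alternatives were DESeq2 1.42.0, its size factors, no filter, 30 cells per sum, no immunoglobulin genes (253), thinned cells, no block, each mouse left out, 210 cells named against their fraction left out, the PC well alone (at least 3 cells per sum), and G1 cells alone. Python 3.11.15, numpy 2.4.6, scipy 1.17.1, pandas 2.3.3 and matplotlib 3.10.9 were used.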

Additional observations from a re-analysis of the deposited data

Results flagged for a closer look

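Over 90 groups of a gene and a population, 10 samples stood apart from the other mice of their group by Dixon's test; chance gives about 1 in 20 groups. Of these, 4 were PC sums of day 16 mouse 1, with 12 cells, the highest of the 6: H2-Aa at 2637 CPM, H2-Eb1 at 1787 CPM, H2-DMb1 at 42.8 CPM and H2-Ob at 220.3 CPM. In preMem, Ciita stood high at 159 CPM in day 16 mouse 1, and H2-DMb1 at 85.0 CPM in day 22 mouse 1. H2-DMb2 in LZtoDZ stood high at 519.6 CPM in day 22 mouse 2. In LZ, H2-Oa stood low at 324 CPM in day 10 mouse 1, Ciita in LZ G1 stood high at 117 CPM in the same mouse, and H2-Oa in LZ G2M stood high at 348 CPM in day 10 mouse 2. The cause of none of these was tested.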

How the results depend on the processing

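With at most 6 mice, a difference in a ratio cannot go below an exact p of 0.031, and 47 prePC cells and 0 to 5 Ciita counts per PC sum limit what those states show. The mouse was a replicate block in the state and phase fits, because each mouse gave all its populations. Without the replicate block the phase by state test called 7 genes and the day by state test 0; no paired analysis was possible for the days because they hold different mice. With cells thinned, the counts were 752 (DZ minus LZ), 2033 (LZtoDZ minus LZ), 1389 (preMem minus LZ), 441 with 2 members (prePC minus LZ), 2236 (PC minus LZ), 1000 (PC minus prePC) and 1961 (LZ G2M minus G1). In the PC well alone they were 25 with 2 members (DZ), 639 (LZtoDZ), 283 with 1 member (preMem), 49 with 0 members (prePC), 1277 (PC minus LZ) and 389 (PC minus prePC). With only the 2 states compared, added after the data were seen, they were 3181 (DZ), 745 (prePC) and 892 (PC minus prePC). With at least 30 cells per sum DZ minus LZ gave 2383, and no prePC comparison could be fitted. Without immunoglobulin genes the counts were 2367 (DZ minus LZ), 420 (LZ day 22 minus day 10), 275 (LZ over 3 days), 238 and 185 (the same in DZ), 112 (phase by state) and 5 (day by state). Without the filter they were 276, 200, 468 and 460 for these 4 day tests in the same order and 121 for day by state, and 3 members in preMem. DESeq2 gave 71 (DZ over 3 days) and 6 (day by state).

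Turned in sign were H2-Ab1 in preMem without the filter (-0.061); in prePC in the PC well alone H2-Aa (0.22), H2-Ab1 (0.35), H2-Eb1 (0.0338), H2-DMa (0.0846), H2-DMb2 (0.14), H2-Ob (0.88) and Ciita (0.38); H2-DMb2 in prePC without cells named against their fraction (0.0694); and, thinned, H2-DMb1 in LZ G2M (-0.0515), H2-DMa between days in LZ (0.0198) and H2-Aa between days in DZ (0.0042). The H2-O to H2-DM ratio in DZ turned with H2-Oa over H2-DMa (-0.37), and the classical to Ciita ratio with H2-Aa alone in LZtoDZ (-0.058) and preMem (0.0746) and with H2-Eb1 alone in preMem (0.003). The Ciita split in LZ was 0.0613 at the median depth, past the threshold. The cause was not tested.

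Leaving out each mouse gave 543 to 1282 genes and 3 to 8 members for prePC minus LZ, and 1220 to 2238 genes for PC minus prePC. It gave 25 to 127 and 30 to 92 in LZ (day 22 minus day 10, and over 3 days), 17 to 73 and 14 to 64 in DZ, 22 to 82 for phase by state and 2 to 25 for day by state. The classical to Ciita difference ran from -0.0355 to 0.0825 in LZtoDZ and from -0.12 to 0.0421 in preMem. Between days in LZ, H2-DMa ran from -0.0268 to 0.0145, H2-DMb1 from -0.0429 to 0.0869 and H2-Ob from -0.0713 to 0.16. In DZ, H2-Aa ran from -0.15 to 0.0923, H2-Ab1 from -0.12 to 0.0741, H2-Eb1 from -0.15 to 0.0421, H2-DMb2 from -0.10 to 0.17, Cd74 from -0.0629 to 0.10 and Ciita from -0.0001 to 0.19.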
